A study of Mus musculus with 24 samples.

Results

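The type I interferon response genes are a set of genes whose transcription rises when type I interferon reaches a cell. The set used here holds 33 genes, taken by gene name from a fixed list, of the 40481 genes in the tables. That list was chosen with earlier results of these data known, so counts over it are a description and no test of the set. All 33 were listed in both tissues, and all 33 passed the filter on low values in both. RNA had been sequenced from ileum and liver of C57BL/6 mice, 10 weeks after 75% of the small bowel had been resected. The floxed mice were Abca1 fl/fl and the Villin-Cre mice were Abca1 fl/fl X Villin-Cre. In the latter the Villin promoter drives Cre recombinase in the intestinal epithelium, which removes the cholesterol exporter Abca1 there. Each genotype received GW3965, an agonist of the liver X receptors (LXR), orally at 1 mg/kg/day on 2 days of each of the last 5 weeks, or the vehicle, which contains 0.5% carboxymethyl cellulose per the labels. Every group had been operated on, so no unresected animal enters any comparison, and 3 libraries stand for each of the 8 groups. The sources used here give neither the age nor the sex of the mice.

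Type I interferons (alpha and beta) bind the receptor pair Ifnar1 and Ifnar2, whose kinases Jak1 and Tyk2 phosphorylate Stat2. Stat2 and Irf9 are parts of the complex ISGF3, which binds interferon-stimulated response elements and switches on antiviral genes. Their products detect viral nucleic acid (Ddx58, which encodes RIG-I, Ifih1, which encodes MDA5, and Zbp1), block translation of viral RNA (the IFIT proteins and Eif2ak2), activate RNA decay (the OAS proteins), hold back virions (Bst2) and damp the response itself (Usp18). The intestinal epithelium and resident macrophages carry a low tonic level of this programme, driven in part by the microbiota, and macrophages and endothelium of the liver are further known sites of it.

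The response element is visible in the DNA in front of several of these genes, and 8 stretches are shown as examples of windows with and without it, all of genes named in the results and chosen after their values were seen. They come from the RefSeq promoter table of GRCm38.p6, which covers 250 bases before to 50 bases after each start site. Isg15 is at chr4:156200819-156200938 (minus strand), Ifit1 at chr19:34640749-34640888 (plus), Ifit3 at chr19:34583349-34583468 (plus), Ifit3b at chr19:34607745-34607864 (plus), Oas3 at chr5:120777660-120777779 (minus), Bst2 at chr8:71537513-71537632 (minus), Irf7 at chr7:141266485-141266604 (minus) and Cmpk2 at chr12:26469095-26469214 (plus). Each is written 5′ to 3′ on the strand of its gene. Capitals mark matches to the core letters of a response element, which are GAAA, any 2 bases and GAAA again, or to the reverse complement, TTTC, any 2 bases and TTTC. Both strands were searched, and overlapping matches were each counted.
Isg15: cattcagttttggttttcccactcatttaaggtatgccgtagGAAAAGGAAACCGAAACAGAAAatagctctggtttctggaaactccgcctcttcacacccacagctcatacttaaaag
Ifit1: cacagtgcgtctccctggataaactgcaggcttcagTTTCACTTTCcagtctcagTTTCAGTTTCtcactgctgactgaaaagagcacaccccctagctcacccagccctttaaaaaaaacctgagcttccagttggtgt
Ifit3: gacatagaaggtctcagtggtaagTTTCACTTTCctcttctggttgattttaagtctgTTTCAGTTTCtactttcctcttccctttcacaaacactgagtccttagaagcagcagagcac
Ifit3b: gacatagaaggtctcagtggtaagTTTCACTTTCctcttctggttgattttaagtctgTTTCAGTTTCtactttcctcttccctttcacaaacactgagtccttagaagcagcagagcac
Oas3: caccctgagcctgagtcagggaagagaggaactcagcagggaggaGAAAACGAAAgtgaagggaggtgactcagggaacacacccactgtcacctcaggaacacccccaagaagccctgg
Bst2: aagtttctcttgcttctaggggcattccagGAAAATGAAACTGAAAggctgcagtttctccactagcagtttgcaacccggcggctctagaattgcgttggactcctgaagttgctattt
Irf7: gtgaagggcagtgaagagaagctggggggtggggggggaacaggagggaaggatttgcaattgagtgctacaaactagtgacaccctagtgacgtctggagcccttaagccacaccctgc
Cmpk2: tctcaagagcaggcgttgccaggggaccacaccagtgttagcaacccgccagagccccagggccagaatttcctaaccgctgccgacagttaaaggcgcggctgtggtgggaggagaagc
Isg15 carries 3 overlapping matches in a row, Ifit1, Ifit3 and Ifit3b carry 2 each on the other strand, and the Ifit3 and Ifit3b stretches are identical over 120 of 120 bases. Bst2 has 2 overlapping matches and Oas3 has 1. The windows of Irf7 and Cmpk2 hold 0 matches to these letters. Of the 33 genes, 23 had an entry in the table, and 13 of these (56.52%) held the motif, against 3.99% of all 27025 genes in the table and 3.44% of all 32851 promoters of the same length. A match is a description of the letters and not a site of binding.

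The tables allowed 17.0 to 24.2 M assigned reads per ileal library and 26.5 to 32.3 M per liver library to be recovered, and values are given as counts per 1000000 assigned reads (CPM). Vil1, the villin of the intestinal brush border, was between 2061 and 3779 CPM in the ileum and at most 1.69 CPM in the liver. Alb, the albumin of hepatocytes, was between 35810 and 58500 CPM in the liver and between 5.05 and 30.3 CPM in the ileum. Abca1, the targeted gene and an LXR target, averaged 57.2 and 372 CPM in the floxed ileum (vehicle, GW3965) and 28.3 and 53.8 CPM in the Villin-Cre ileum. In the same group order it averaged 335, 470, 225 and 379 CPM in the liver. Ileal floxed GW3965 replicate 3 stood apart from the other 2 libraries of its group (251 CPM of Abca1 against 428 and 438), and liver floxed GW3965 replicate 1 stood apart in its own group. Their counts differed from those of the other libraries by 7.19 to 8.89 times the Poisson variance, while other pairs within a group differed by 2.59 to 3.96 times. The labels do not say that the libraries of a group came from separate mice, so the p-values measure the spread among libraries alone, and that spread may be technical. The ± after a CPM value is the SD over 3 libraries, and the ± after a log2 fold change is its standard error. Fold changes are on the scale of log2(CPM + 0.5), which understates the change of low genes. "Rose" and "fell" are used for a gene whose limma test passed an adjusted p of 0.05 over all genes tested. In such bulk samples, fewer cells of a type and less RNA per cell cannot be told apart.

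In floxed mice on vehicle the 33 genes summed to 1371 to 1479 CPM in the ileum and to 897 to 911 CPM in the liver. A few genes weigh heavily in this sum, as Parp14 alone averaged 296.8 CPM in the ileum and 65.74 CPM in the liver. All 3 ileal libraries were above all 3 liver libraries for 18 genes, below them for 8, and overlapped with them for 7, where 44.4% of the 16322 genes tested in both tissues were above and 31.5% below. By number of genes the set was thus not far from all genes. Zbp1, a sensor of left-handed nucleic acid that triggers cell death, averaged 100.2 ± 4.92 CPM in the ileum and 10.8 ± 0.337 CPM in the liver, 9.30 times as much. Oas3 and Oasl2, of the OAS family, were 7.72 and 7.54 times as high in the ileum. Bst2, the tetherin that holds budding virions at the cell surface, went the other way, with 10.5 ± 0.350 CPM in the ileum and 186 ± 2.45 CPM in the liver. Per kilobase of annotated exon, the highest ileal levels were those of Parp14 (31.9 CPM per kb), Dtx3l (30.5) and Zbp1 (28.4), and the lowest were Oas2 (0.808) and Ifi44 (0.823). On the same per-length scale the liver was led by Bst2 (205.8 CPM per kb), Irf7 (21.0) and Stat2 (18.4), with Mx1 (0.597) and Oas3 (0.688) lowest. The tissue levels are a description with no test.

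**Figure D1:**
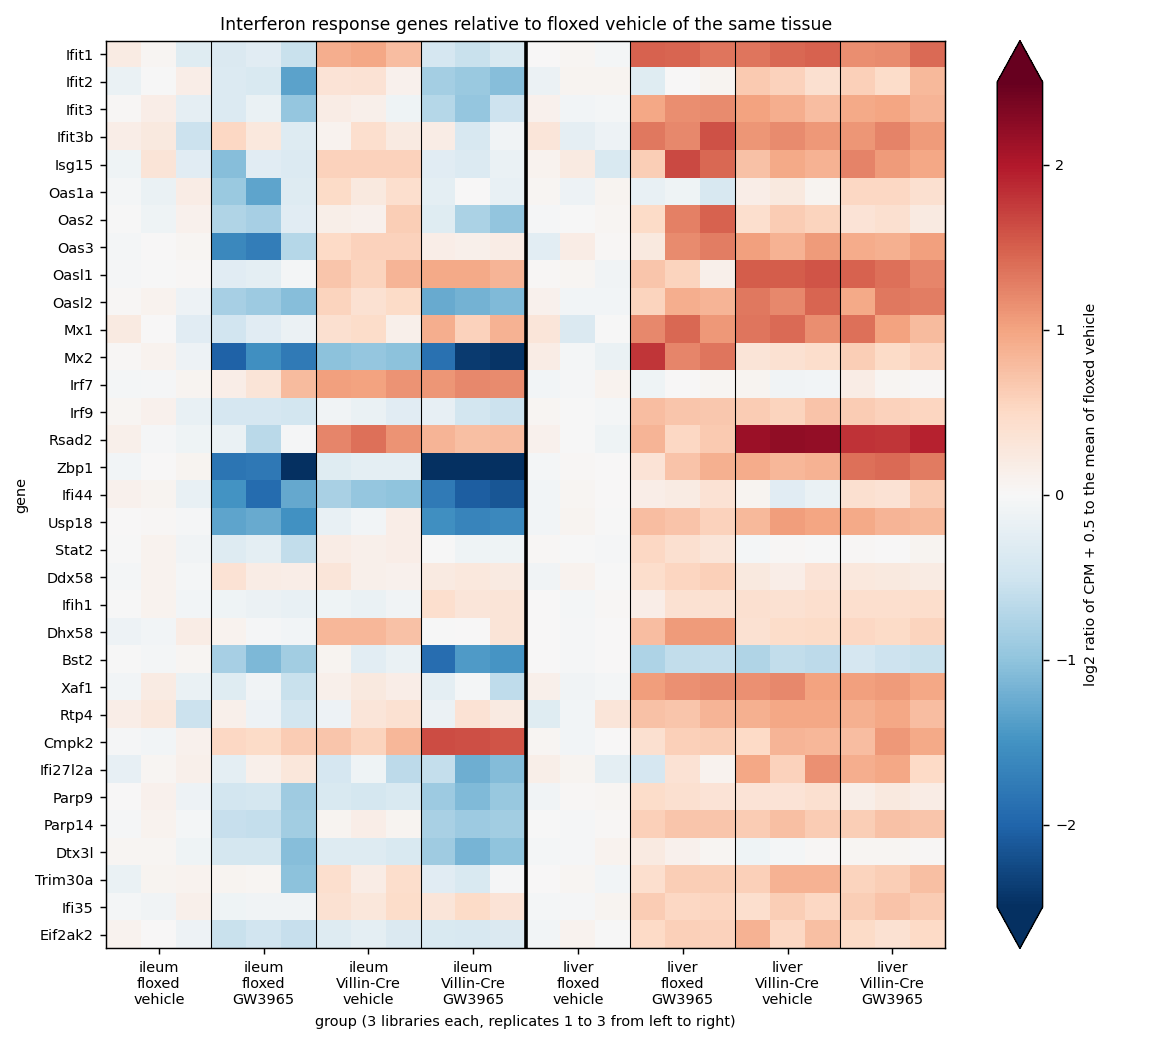
Each row is 1 of the 33 genes and each column 1 of the 24 libraries, and colour is the log2 ratio of CPM + 0.5 to the mean of the floxed vehicle libraries of the same tissue, with the colour scale ending at its arrow tips. In the ileum most rows turn to lower values in the GW3965 columns of both genotypes, and in the liver most rows turn to higher values in every group other than floxed vehicle.

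GW3965 went with less of the interferon programme in the floxed ileum. Of the 33 genes, 18 fell, 3 rose and 12 did not pass the test, where 20.9% of all 18656 genes tested fell and 14.7% rose. The median log2 fold change was -0.43 over the 33 genes and -0.08 over all genes tested, and the summed level went from 1371 to 1479 CPM to 945 to 1049 CPM. Among all genes called, 94.5% had groups that did not overlap, and so did 20 of these 21, the exception being Ifit1 (18.1, 16.2 and 12.5 CPM against 12.1, 12.7 and 10.5 CPM). By role, 4 of 5 OAS genes fell, as did both genes of the ISG15 system, all 3 of the PARP and DTX3L group, 2 of 4 IFIT genes, 1 of 2 Mx genes, 2 of 3 transcription factors, 2 of 5 sensors and 2 of 9 other effectors.

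Zbp1 measured 95.1, 101 and 105 CPM in the 3 floxed vehicle libraries and 27.8, 28.8 and 14.4 CPM in the 3 GW3965 libraries (log2 fold change -2.12 ± 0.18, adjusted p = 9.1e-08). Usp18, the protease that strips Isg15 from its targets and limits receptor signalling, went from 14.6, 14.9 and 14.2 CPM to 5.55, 5.77 and 4.75 CPM (-1.37 ± 0.13, adjusted p = 3.1e-07). In both genes every treated library lay far below every vehicle library. Mx2, of the dynamin-like antiviral GTPases and annotated in GENCODE as a polymorphic pseudogene, went from 11.9, 12.3 and 10.6 CPM to 2.48, 3.68 and 3.05 CPM (-1.77 ± 0.19, adjusted p = 1.1e-06), while its neighbour Mx1 did not pass the test (6.86, 5.82 and 4.67 CPM against 4.04, 4.64 and 5.19 CPM, -0.29 ± 0.17, adjusted p = 0.2). The Mx2 groups lay far apart and the Mx1 groups overlapped. Ifi44, an interferon-induced protein of the cytoplasm, went from 5.48, 5.29 and 4.36 CPM to 1.46, 0.961 and 1.79 CPM (-1.56 ± 0.21, adjusted p = 2.3e-05), which is a low level in all 6 libraries.

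Oas3, which makes the 2′-5′ oligoadenylate that activates RNase L, measured 36.2, 37.7 and 38.8 CPM on vehicle and 12.0, 11.03 and 22.8 CPM on GW3965 (-1.35 ± 0.17, adjusted p = 1.1e-05). Oasl2, an OAS-like protein, went from 64.6, 66.8 and 58.1 CPM to 35.3, 33.5 and 30.02 CPM (-0.93 ± 0.08, adjusted p = 1.1e-07). The library that stood apart, replicate 3, was the highest treated library for Oas3 and the lowest for Oasl2, and both genes kept clear of the vehicle range. Oasl1, the neighbouring gene, measured 36.5, 36.8 and 38.1 CPM and 30.6, 31.4 and 36.1 CPM and did not pass the test (-0.19 ± 0.08, adjusted p = 0.09). Oas1a went from 14.8, 13.7 and 17.3 CPM to 7.78, 5.83 and 12.1 CPM (-0.85 ± 0.18, adjusted p = 0.0015), with replicate 3 again the highest treated library. Bst2 went from 10.5, 10.2 and 10.9 CPM to 5.69, 4.58 and 5.49 CPM (-0.94 ± 0.16, adjusted p = 0.00017), with no overlap.

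Stat2 and Irf9, which carry the signal, had smaller fold changes than Zbp1, Usp18, Mx2 and Oas3. Stat2 went from 111, 117 and 105 CPM to 88.3, 93.5 and 72.0 CPM (-0.40 ± 0.08, adjusted p = 0.0009) and Irf9 from 39.9, 41.6 and 33.8 CPM to 28.6, 28.6 and 27.6 CPM (-0.43 ± 0.10, adjusted p = 0.0022). Isg15, the ubiquitin-like modifier, had a log2 fold change of -0.54 ± 0.20, adjusted p = 0.049, and Eif2ak2, the kinase PKR that halts translation, one of -0.53 ± 0.07, adjusted p = 2.3e-05. The 3 genes that rose were Cmpk2, Irf7 and Ddx58. Cmpk2, a mitochondrial nucleotide kinase, measured 24.2, 23.7 and 26.6 CPM and then 36.0, 35.1 and 38.6 CPM (0.55 ± 0.08, adjusted p = 3.3e-05). Irf7, the factor that amplifies interferon transcription, measured 68.1, 69.0 and 73.1 CPM and then 78.6, 88.2 and 121 CPM (0.43 ± 0.11, adjusted p = 0.0047). All treated libraries lay above all vehicle libraries for both, and replicate 3 was the highest for Irf7. Ddx58 rose less (46.0, 50.4 and 46.2 CPM against 61.0, 54.1 and 53.1 CPM, 0.24 ± 0.07, adjusted p = 0.019), and Ifih1 measured 79.5, 85.0 and 76.2 CPM and 74.7, 72.6 and 70.7 CPM and did not pass (-0.14 ± 0.06, adjusted p = 0.078). Ifit3 and Ifit3b did not pass either (-0.49 ± 0.19, adjusted p = 0.063 and 0.19 ± 0.25, adjusted p = 0.6).

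**Figure D2:**
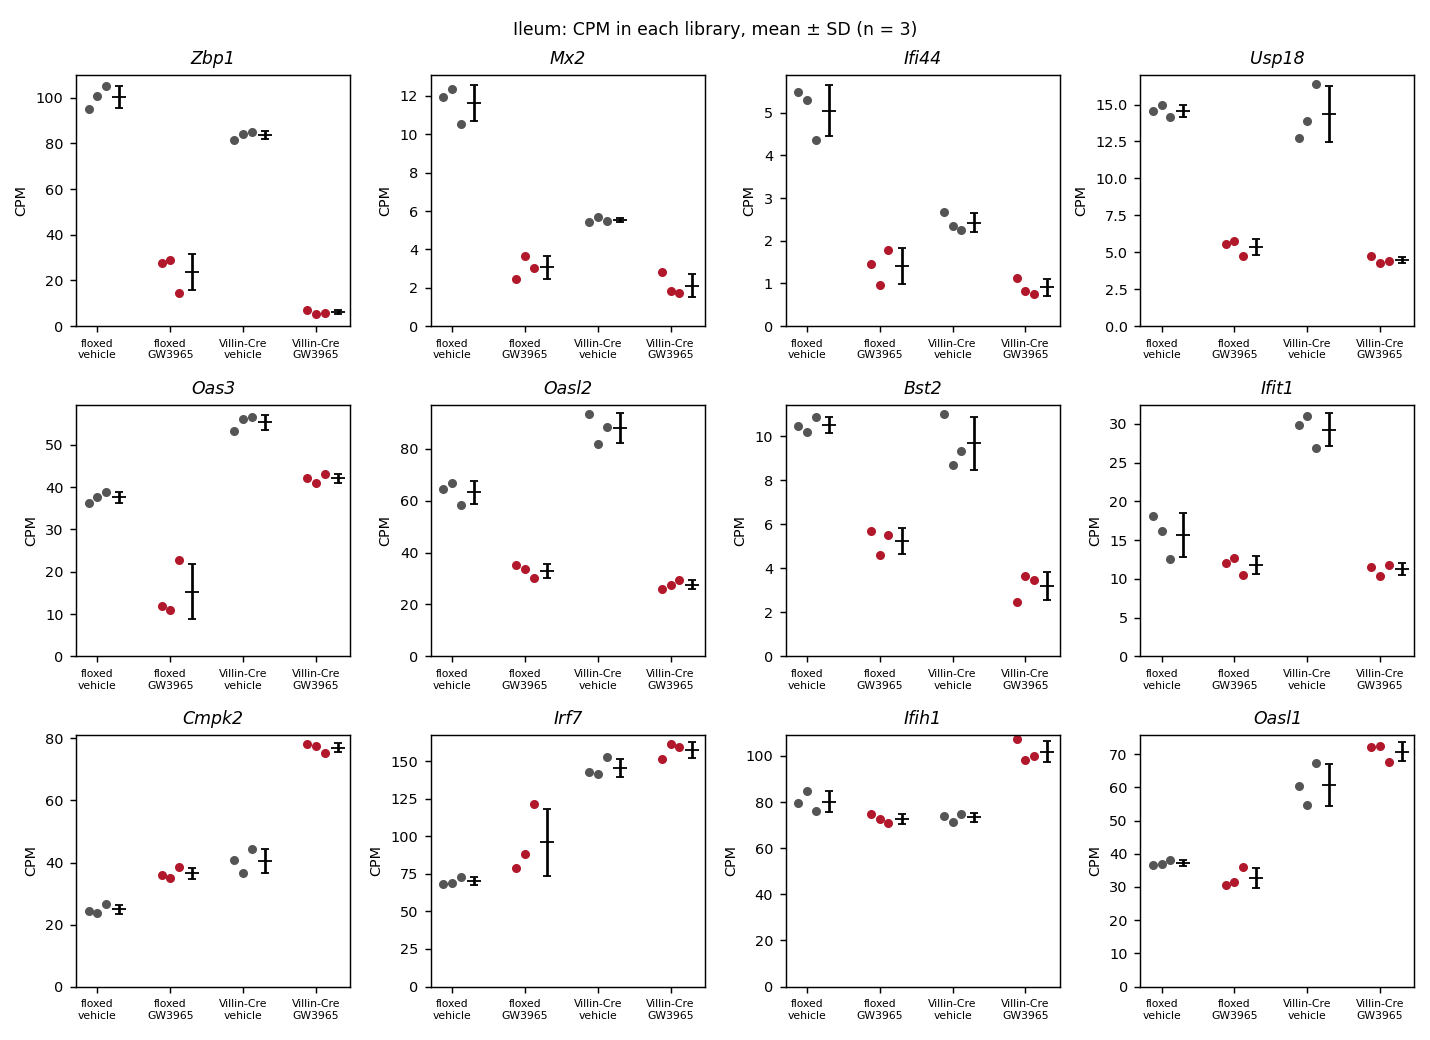
CPM in each ileal library (points) with the mean and SD (bars) of the 4 groups for 12 of the genes. Zbp1, Mx2, Ifi44, Usp18 and Bst2 sit lower in the GW3965 libraries of both genotypes, Cmpk2 sits higher in both, and Irf7 is higher in Villin-Cre libraries than in floxed libraries.

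Markers of other cells moved in the same comparison. Summed macrophage markers, none of the 10 at 0, went from 384 to 398 CPM to 187 to 222 CPM, and 10 of 10 fell. Smooth muscle markers (6 of 6 fell) went from 5945 to 6035 CPM to 2276 to 3426 CPM. Markers of dividing cells (5 of 5 fell) went from 328 to 375 to 114 to 159 CPM. Enterocyte markers (7 of 9 rose) went from 5596 to 5678 to 7638 to 8091 CPM. Markers of T and NK cells (4 of 11 tested rose) went from 75.0 to 81.1 to 90.4 to 105 CPM, and those of B cells (4 of 6 rose) from 8.05 to 9.65 to 4.97 to 114 CPM. The B cell sums of the GW3965 libraries were 114, 109.5 and 4.97 CPM, so replicate 3 lay below every vehicle library. Markers of plasmacytoid dendritic cells, the main source of interferon alpha, measured 37.4 to 46.3 CPM and 37.4 to 41.9 CPM (1 fell and 2 rose of 6 tested). Their part in the interferon counts was not tested. Without replicate 3 of the GW3965 group, 19 of the 21 calls were kept. When libraries that differed by under 4 times the Poisson variance were averaged into 1 sample, which leaves 5 samples for the 4 groups, 0 of the 21 calls were kept and all 21 kept their sign. Leaving out 1 library ended the calls of Ifit1 without floxed vehicle replicate 1 or 2, or floxed GW3965 replicate 3 (adjusted p = 0.052 to 0.14) and Ifit2 without floxed vehicle replicate 3, or floxed GW3965 replicate 3 (adjusted p = 0.07 to 0.072). It also ended those of Isg15 without floxed vehicle replicate 1 or 2, or floxed GW3965 replicate 1 (adjusted p = 0.08 to 0.26) and Ddx58 without floxed vehicle replicate 1 or 3, or floxed GW3965 replicate 1 (adjusted p = 0.061 to 0.1). Oas2 lost its call without any 1 of 5 of the 6 libraries (adjusted p = 0.068 to 0.14), all but floxed GW3965 replicate 3.

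In the Villin-Cre ileum, GW3965 went with a fall in 21 of the 33 genes and a rise in 4, and 8 did not pass the test. Over all 18656 genes, 31.1% fell and 21.5% rose. The median log2 fold change was -0.57 over the 33 genes and -0.11 over all genes, and the summed level went from 1554 to 1571 CPM to 1145 to 1188 CPM. No overlap was found for 24 of these 25 genes and for 97.7% of all genes called, the exception being Ifi27l2a, a small mitochondrial protein (3.75, 4.79 and 3.12 CPM against 3.26, 1.94 and 2.18 CPM). Both genes of the ISG15 system fell, as did all 3 of the PARP and DTX3L group, 3 of 4 IFIT genes, 3 of 5 OAS genes, 1 of 2 Mx genes, 1 of 3 transcription factors, 2 of 5 sensors and 6 of 9 other effectors.

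Zbp1 was again the gene with the largest change, from 81.6, 84.2 and 84.9 CPM in the vehicle libraries to 7.18, 5.37 and 5.92 CPM in the GW3965 libraries (log2 fold change -3.67 ± 0.18, adjusted p = 3.8e-11). Oasl2 went from 93.3, 82.0 and 88.5 CPM to 26.1, 27.5 and 29.3 CPM (-1.65 ± 0.08, adjusted p = 3.5e-11) and Usp18 from 12.7, 13.9 and 16.4 CPM to 4.72, 4.29 and 4.41 CPM (-1.57 ± 0.13, adjusted p = 2e-08). In all 3 genes the treated libraries lay close together and far below the vehicle libraries. Bst2 measured 11, 8.71 and 9.31 CPM and then 2.46, 3.63 and 3.46 CPM (-1.48 ± 0.16, adjusted p = 5.6e-07). Mx2 measured 5.45, 5.67 and 5.49 CPM and then 2.83, 1.82 and 1.71 CPM (-1.23 ± 0.19, adjusted p = 2.7e-05), and Ifi44, the lowest of these genes, 2.67, 2.34 and 2.26 CPM and then 1.13, 0.825 and 0.758 CPM (-1.06 ± 0.21, adjusted p = 0.00048). None of these groups overlapped. Ifit1, an RNA-cap sensor that blocks translation, went from 29.9, 31.0 and 26.9 CPM to 11.5, 10.4 and 11.8 CPM (-1.34 ± 0.13, adjusted p = 1.1e-07), and Ifit2, of the same family, from 11.8, 11.9 and 9.85 CPM to 4.82, 4.54 and 4.08 CPM (-1.23 ± 0.21, adjusted p = 0.00011).

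Cmpk2, Ifih1, Mx1 and Oasl1 rose in the Villin-Cre ileum. Cmpk2 measured 40.7, 36.7 and 44.4 CPM and then 78.1, 77.5 and 75.3 CPM (0.92 ± 0.08, adjusted p = 3.1e-08), and Ifih1 measured 74.1, 71.3 and 75.0 CPM and then 107, 98.5 and 99.9 CPM (0.47 ± 0.06, adjusted p = 4.1e-06). Both were separated from their vehicle libraries. Mx1 measured 7.81, 8.12 and 6.41 CPM and then 11.4, 8.83 and 10.99 CPM (0.46 ± 0.17, adjusted p = 0.029), and Oasl1 measured 60.5, 54.6 and 67.3 CPM and then 72.3, 72.5 and 67.6 CPM (0.22 ± 0.08, adjusted p = 0.031). Each family pair thus split within the same tissue, with Mx2 and Oasl2 lower on GW3965 and Mx1 and Oasl1 higher. Among the genes of signalling, Stat2 fell (-0.24 ± 0.08, adjusted p = 0.019). Irf9 (-0.23 ± 0.10), Irf7 (0.11 ± 0.11), Ddx58 (0.06 ± 0.07) and Eif2ak2 (-0.07 ± 0.07) did not pass the test (adjusted p of at least 0.061). Isg15 fell from 8.27, 8.30 and 8.24 CPM to 4.34, 4.17 and 4.74 CPM (-0.84 ± 0.20, adjusted p = 0.0023). Of the family pair Ifit3 and Ifit3b, Ifit3 fell (-0.80 ± 0.19, adjusted p = 0.0023) and Ifit3b did not pass (-0.35 ± 0.25, adjusted p = 0.27).

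Cell markers moved in this comparison too. Smooth muscle markers (6 of 6 fell) went from 6279 to 6598 CPM to 799 to 808 CPM and enterocyte markers (9 of 9 rose) from 6510.0 to 6794 CPM to 17330.0 to 17600.0 CPM. Macrophage markers (8 of 10 fell) went from 333 to 345 CPM to 288 to 303 CPM, markers of T and NK cells (10 of 11 tested fell) from 181 to 191 to 59.1 to 68.1 CPM, and those of plasmacytoid dendritic cells (3 of 6 tested fell) from 34.7 to 37.6 to 19.1 to 25.0 CPM. Their part in the interferon counts was not tested. After the same averaging, 4 of the 25 calls were kept, all 25 with their sign. Leaving out 1 of the 6 libraries ended the calls of Mx1 without Villin-Cre vehicle replicate 3, or Villin-Cre GW3965 replicate 1 or 3 (adjusted p = 0.092 to 0.12), Stat2 without Villin-Cre vehicle replicate 1, or Villin-Cre GW3965 replicate 2 or 3 (adjusted p = 0.058 to 0.065) and Xaf1 without Villin-Cre vehicle replicate 2, or Villin-Cre GW3965 replicate 3 (adjusted p = 0.055 to 0.11). Likewise 5 further calls were lost without any 1 of 4 of the 6 libraries, namely those of Ifi27l2a (adjusted p = 0.061 to 0.14), Oas1a (0.068 to 0.083), Oasl1 (0.07 to 0.17), Rsad2 (0.054 to 0.098) and Trim30a (0.1 to 0.13), and for each of them the list held libraries of both arms.

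The 2 ileal responses were set against each other in the interaction, taken as the GW3965 effect with Villin-Cre minus the effect without it. Of the 33 genes, 6 were higher and 5 lower in the interaction, where 14.6% and 18.4% of all genes tested were, and the median was -0.18 against -0.04 over all genes. No gene was called in opposite directions in the 2 genotypes. Zbp1 fell further in Villin-Cre mice (difference -1.55 ± 0.25, adjusted p = 0.00017), as did Ifit1 (-0.96 ± 0.18, adjusted p = 0.00051) and Oasl2 (-0.72 ± 0.11, adjusted p = 0.00011). Oas3 went the other way (0.96 ± 0.24, adjusted p = 0.0061), since it fell in floxed mice and measured 53.2, 56.0 and 56.6 CPM and 42.1, 41.0 and 43.0 CPM in Villin-Cre mice, without passing the test there (-0.39 ± 0.17, adjusted p = 0.068). Ifih1 (0.61 ± 0.08, adjusted p = 3.1e-05) and Eif2ak2 (0.46 ± 0.10, adjusted p = 0.0025) were higher in the interaction. Stat2 (0.16 ± 0.11), Irf9 (0.20 ± 0.14), Irf7 (-0.31 ± 0.15), Isg15 (-0.30 ± 0.29), Usp18 (-0.21 ± 0.18) and Ddx58 (-0.18 ± 0.10) did not pass the test (adjusted p of at least 0.13). Averaging the close libraries kept 0 of the 11 differences. The calls lost by leaving out 1 library were those of Mx1 without floxed vehicle replicate 1, or floxed GW3965 replicate 1, or Villin-Cre vehicle replicate 3, or Villin-Cre GW3965 replicate 1 or 3 (adjusted p = 0.052 to 0.065) and of Parp14 without floxed vehicle replicate 1 or 3, or floxed GW3965 replicate 1 or 2, or Villin-Cre vehicle replicate 1 or 2, or Villin-Cre GW3965 replicate 2 or 3 (adjusted p = 0.053 to 0.09).

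Under vehicle, the Villin-Cre ileum had more RNA of 10 of the 33 genes and less of 5 than the floxed ileum, and 18 did not pass the test. Over all genes, 9.61% were higher and 30.7% lower, and the medians were 0.23 and -0.18. Rescaling the libraries by median ratios moved the median of all genes to 0.04, and then 17 of the 33 genes were higher and 2 lower. The genes with the largest rise were Rsad2, which encodes viperin (5.93, 5.29 and 4.99 CPM in floxed libraries and 13.2, 14.8 and 12.4 CPM in Villin-Cre libraries, 1.24 ± 0.16, adjusted p = 1e-05), and Irf7 (68.1, 69.0 and 73.1 CPM and 143, 141 and 152 CPM, 1.05 ± 0.11, adjusted p = 9.7e-07). In both genes all Villin-Cre libraries lay above all floxed libraries. Isg15 (0.60 ± 0.20, adjusted p = 0.027) was higher and Eif2ak2 (-0.31 ± 0.07, adjusted p = 0.0027) was lower. Stat2 (0.17 ± 0.08), Irf9 (-0.17 ± 0.10), Usp18 (-0.03 ± 0.13), Ddx58 (0.18 ± 0.07) and Ifih1 (-0.13 ± 0.06) did not pass the test (adjusted p of at least 0.058). Mx2 was lower in Villin-Cre libraries (11.9, 12.3 and 10.6 CPM against 5.45, 5.67 and 5.49 CPM, -1.0 ± 0.19, adjusted p = 0.00038). Macrophage markers (6 of 10 lower) summed to 384 to 398 CPM in floxed and 333 to 345 CPM in Villin-Cre libraries. Markers of T and NK cells (9 of 11 tested higher) summed to 75.0 to 81.1 and 181 to 191 CPM, those of dividing cells (5 of 5 lower) to 328 to 375 and 92.3 to 99.0 CPM, and those of Paneth cells (4 of 4 lower) to 356 to 378 and 128 to 132 CPM. The part of these markers was not tested. The averaging of close libraries left 0 of these 15 calls. Single libraries decided those of Dtx3l and Isg15 for 5 of the 6 libraries (adjusted p = 0.073 to 0.11 and 0.063 to 0.12), the exceptions being floxed vehicle replicate 3 for Dtx3l and floxed vehicle replicate 2 for Isg15, and that of Oas3 without floxed vehicle replicate 1, or Villin-Cre vehicle replicate 2 or 3 (adjusted p = 0.051 to 0.057).

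Under GW3965, 10 of the 33 genes were higher and 8 lower in the Villin-Cre ileum than in the floxed ileum, against 13.6% and 38.3% of all genes. The medians were 0.01 and -0.24, and after rescaling, which moved the median of all genes to 0, 16 were higher and 3 lower. Oas3 was the furthest above (12.0, 11.03 and 22.8 CPM in floxed and 42.1, 41.0 and 43.0 CPM in Villin-Cre libraries, 1.51 ± 0.17, adjusted p = 1.8e-06) and Zbp1 the furthest below (27.8, 28.8 and 14.4 CPM and 7.18, 5.37 and 5.92 CPM, -1.81 ± 0.18, adjusted p = 3.6e-07). The groups of both genes were separate. Irf7 (0.73 ± 0.11, adjusted p = 2.4e-05), Stat2 (0.32 ± 0.08, adjusted p = 0.0027) and Ifih1 (0.48 ± 0.06, adjusted p = 4e-06) were higher in Villin-Cre libraries. Irf9 (0.03 ± 0.10), Isg15 (0.30 ± 0.20), Usp18 (-0.23 ± 0.13), Ddx58 (0.00 ± 0.07) and Eif2ak2 (0.15 ± 0.07) did not pass the test (adjusted p of at least 0.1). Enterocyte markers (9 of 9 higher) summed to 7638 to 8091 CPM in floxed and 17330.0 to 17600.0 CPM in Villin-Cre libraries, and smooth muscle markers (6 of 6 lower) to 2276 to 3426 and 799 to 808 CPM. Markers of T and NK cells (10 of 11 tested lower) summed to 90.4 to 105 and 59.1 to 68.1 CPM, of B cells (6 of 6 lower) to 4.97 to 114 and 3.75 to 4.96 CPM, and of Paneth cells (4 of 4 lower) to 164 to 886 and 71.6 to 80.7 CPM. By floxed library, the B cell sums were 114, 109.5 and 4.97 CPM and the Paneth sums 886, 883 and 164 CPM. Replicate 3 was thus far below the others of its group for both lists. Their part was not tested. The calls of Oasl2 and Parp14 turned sign after rescaling (0.03 and 0.10). Averaging the close libraries kept 2 of the 18 calls. The calls that rested on single libraries were those of Dtx3l without floxed GW3965 replicate 1 or 2, or Villin-Cre GW3965 replicate 2 (adjusted p = 0.085 to 0.094) and Mx2 without floxed GW3965 replicate 2 or 3, or Villin-Cre GW3965 replicate 2 or 3 (adjusted p = 0.06 to 0.18). Likewise the calls were lost of Oasl2 without floxed GW3965 replicate 1, or Villin-Cre GW3965 replicate 1 (adjusted p = 0.073 to 0.078) and Parp14 without floxed GW3965 replicate 1 or 2, or Villin-Cre GW3965 replicate 1 or 2 or 3 (adjusted p = 0.054 to 0.17).

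In the floxed liver the same treatment went with more RNA of these genes. Of the 33 genes, 26 rose, 1 fell and 6 did not pass the test, where 10.4% of all 17520 genes tested rose and 19.7% fell. The median log2 fold change was 0.65 over the 33 genes and -0.04 over all genes, and the summed level went from 897 to 911 CPM to 1106 to 1149 CPM. The groups did not overlap for any of these 27 genes, nor for 95.1% of all genes called. All 5 sensors rose, as did both Mx genes, both genes of the ISG15 system, 3 of 4 IFIT genes, 4 of 5 OAS genes, 2 of 3 transcription factors, 2 of 3 of the PARP and DTX3L group and 6 of 9 other effectors.

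Mx2 measured 7.49, 6.34 and 5.75 CPM in the floxed vehicle libraries and 23.7, 15.9 and 17.3 CPM in the floxed GW3965 libraries (log2 fold change 1.46 ± 0.14, adjusted p = 2.7e-06), and Mx1, which lies head to head with it on chromosome 16, measured 2.90, 1.64 and 2.25 CPM and 5.86, 6.99 and 5.32 CPM (1.27 ± 0.19, adjusted p = 0.00016). No treated library of either gene reached down to the vehicle libraries. Ifit1 went from 3.87, 4.04 and 3.71 CPM to 11.7, 11.6 and 10.6 CPM (1.43 ± 0.10, adjusted p = 2.4e-07), Ifit3 from 8.62, 7.52 and 7.59 CPM to 15.9, 18.3 and 18.4 CPM (1.10 ± 0.09, adjusted p = 1.2e-06), and Ifit3b from 2.75, 1.77 and 1.91 CPM to 6.12, 5.57 and 7.51 CPM (1.39 ± 0.15, adjusted p = 1.3e-05). The family rose with no overlap, apart from Ifit2, which measured 7.35, 8.67 and 8.58 CPM and 6.54, 8.23 and 8.60 CPM (-0.08 ± 0.13, adjusted p = 0.7). Isg15 went from 4.92, 5.42 and 3.40 CPM to 7.29, 15.5 and 13.3 CPM (1.26 ± 0.22, adjusted p = 0.00063), and Xaf1, a pro-apoptotic antagonist of XIAP, from 7.38, 6.24 and 6.40 CPM to 14.2, 15.4 and 15.9 CPM (1.13 ± 0.09, adjusted p = 8e-07). Oas2 went from 7.93, 8.14 and 8.41 CPM to 11.6, 20.2 and 23.5 CPM (1.07 ± 0.18, adjusted p = 0.00053). For Isg15 and Oas2 the library that stood apart, replicate 1, was the lowest of the 3 treated libraries, and it still lay above every vehicle library.

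The signalling factors rose with them. Stat2 went from 112, 109 and 108 CPM to 158, 145 and 135 CPM (0.41 ± 0.05, adjusted p = 5.5e-05), and Irf9 from 32.2, 31.0 and 30.2 CPM to 53.5, 50.6 and 49.9 CPM (0.71 ± 0.06, adjusted p = 6.7e-07), each with no overlap. Irf7 measured 76.1, 78.0 and 83.8 CPM and 74.0, 80.2 and 82.3 CPM and did not pass the test (-0.01 ± 0.06, adjusted p = 0.94). Usp18 (0.69 ± 0.08, adjusted p = 1.7e-05), Ddx58 (0.52 ± 0.06, adjusted p = 3.1e-05), Ifih1 (0.31 ± 0.06, adjusted p = 0.00098) and Eif2ak2 (0.56 ± 0.08, adjusted p = 0.00018) all rose. Of the OAS-like pair, Oasl1 (0.46 ± 0.11, adjusted p = 0.007) and Oasl2 (0.78 ± 0.12, adjusted p = 0.00023) both rose. The 1 gene that fell was Bst2, from 188, 183 and 186 CPM to 108, 121 and 124 CPM (-0.66 ± 0.06, adjusted p = 1.6e-06), whose promoter window, printed earlier, holds 2 matches to the response element letters.

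**Figure D3:**
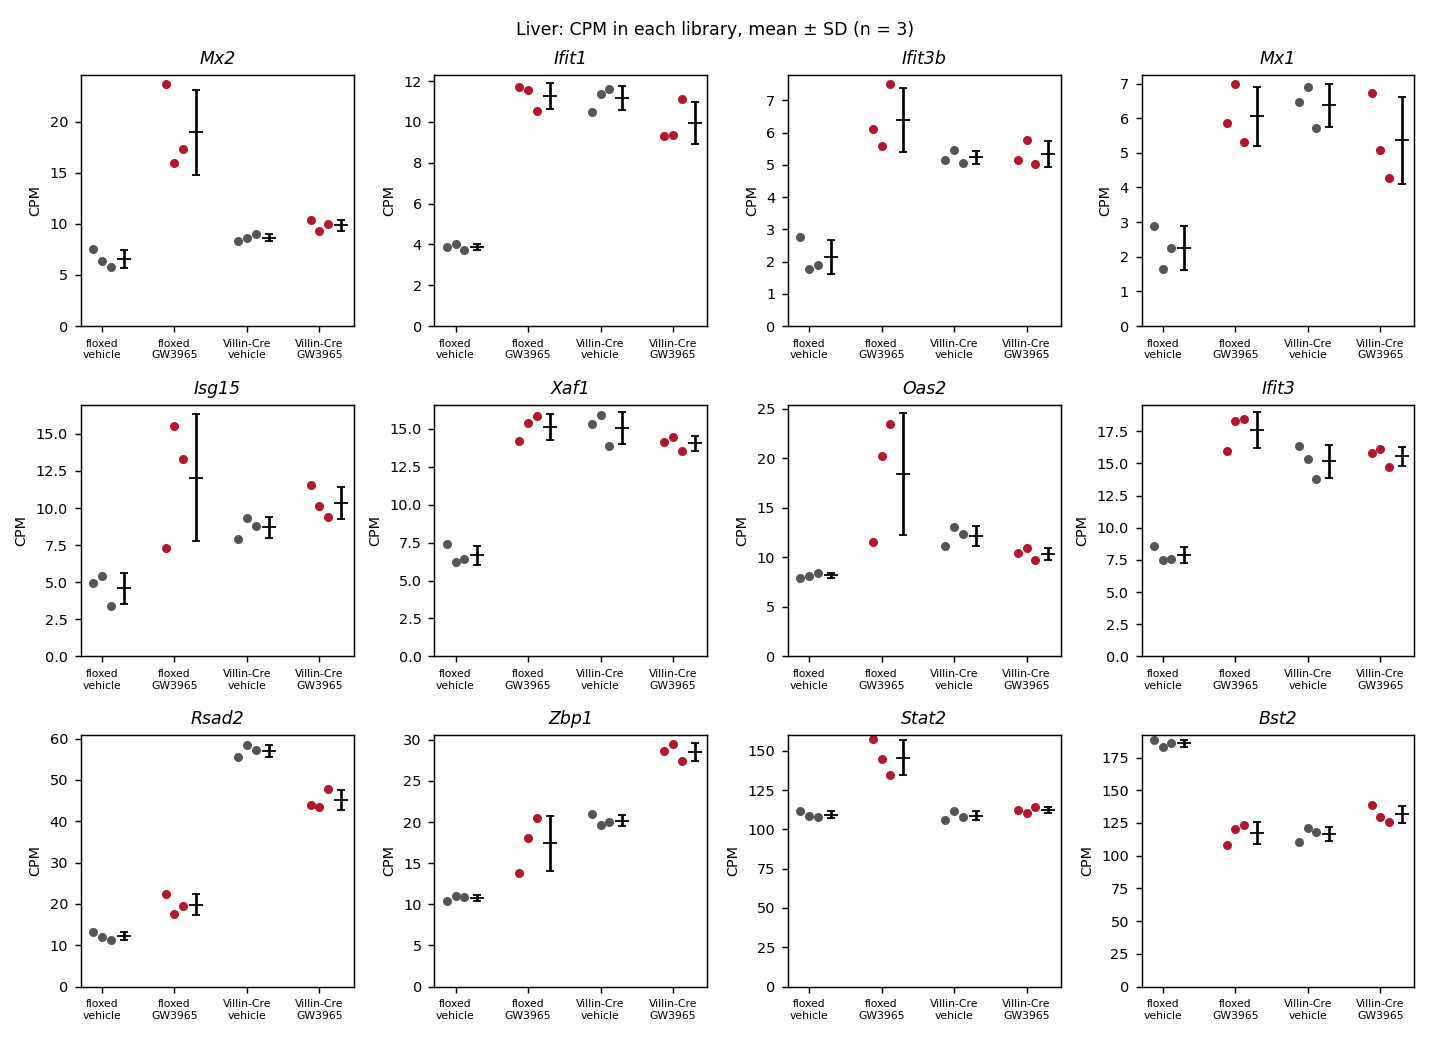
CPM in each liver library (points) with the mean and SD (bars) of the 4 groups for 12 of the genes. For Mx1, Ifit1, Ifit3, Ifit3b, Xaf1 and Rsad2 the floxed vehicle libraries are the low group and the other groups sit above them, and Bst2 shows the opposite order.

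Cell markers of the liver were read in the same comparison. The summed level of macrophage markers went from 628 to 632 CPM to 457 to 600.0 CPM (1 rose and 6 fell of 10), and that of Kupffer cell markers from 416 to 425 CPM to 243 to 489.5 CPM (0 of 5 called). By GW3965 library, the macrophage sums were 457, 593 and 600.0 CPM and the Kupffer sums 243, 489.5 and 488 CPM. The Kupffer sum was thus below the vehicle range in replicate 1, which stood apart, and above it in replicates 2 and 3. Endothelial markers (6 of 6 fell) went from 482 to 502 CPM to 300.4 to 347 CPM, markers of fibroblasts and stellate cells (6 of 6 fell) from 610.2 to 621 to 431 to 505 CPM, and those of monocytes and neutrophils (0 of 7 tested called) from 20.6 to 22.2 to 17.2 to 27.3 CPM. Summed markers of plasmacytoid dendritic cells went from 54.7 to 58.5 CPM to 16.9 to 23.8 CPM (2 of 5 tested fell), which does not stand for a fall of that whole list. Plasma cell markers (3 of 5 rose) went from 357 to 384 CPM to 399 to 461 CPM, wholly above the vehicle range. Markers of T and NK cells (0 of 11 tested called) measured 8.22 to 9.65 and 9.03 to 10.7 CPM, and those of dividing cells (5 of 5 fell) 103 to 105 and 27.1 to 37.7 CPM. Their part in the interferon counts was not tested. All 27 calls were kept without replicate 1 of the GW3965 group and without each of the other 5 libraries compared, in turn. When close libraries were averaged into 1 sample, 0 of the 27 calls were kept and all 27 kept their sign.

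In the Villin-Cre liver, GW3965 went with few changes. Of the 33 genes 2 rose, 2 fell and 29 did not pass the test, against 2.85% and 9.03% of all genes, and the median was 0.00 against -0.08. Zbp1 went from 20.9, 19.6 and 19.9 CPM in the vehicle libraries to 28.7, 29.6 and 27.4 CPM in the GW3965 libraries (0.49 ± 0.11, adjusted p = 0.01) and Ifi44 from 6.87, 5.25 and 5.75 CPM to 8.85, 8.54 and 10.5 CPM (0.60 ± 0.12, adjusted p = 0.0055). Rsad2 went from 55.5, 58.4 and 57.3 CPM to 44.0, 43.4 and 47.8 CPM (-0.34 ± 0.09, adjusted p = 0.02), and Parp9, an ADP-ribosylation enzyme that works with Dtx3l, from 61.0, 61.3 and 63.9 CPM to 53.3, 56.8 and 54.4 CPM (-0.18 ± 0.05, adjusted p = 0.049). The groups of all 4 genes were separate, as were those of 99.7% of all genes called, with the narrowest margin for Parp9. The Mx, IFIT and OAS genes gave 0 calls in this comparison. Stat2 (0.05 ± 0.05), Irf9 (-0.04 ± 0.06), Irf7 (0.12 ± 0.06), Isg15 (0.24 ± 0.22), Usp18 (-0.08 ± 0.08), Ddx58 (-0.01 ± 0.06), Ifih1 (0.03 ± 0.06) and Eif2ak2 (-0.27 ± 0.08) did not pass the test (adjusted p of at least 0.055). Macrophage markers (7 of 10 fell) went from 1239 to 1254 CPM to 866 to 888 CPM in the same comparison, and those of plasmacytoid dendritic cells (1 of 5 tested rose) from 212 to 222 CPM to 269 to 289 CPM. The latter sum does not stand for a rise of that whole list. The part of these markers was not tested. Parp9 lost its call without any 1 of the 6 libraries (adjusted p = 0.069 to 0.17), and Rsad2 without any 1 but Villin-Cre GW3965 replicate 3 (0.054 to 0.082). With close libraries averaged, 0 of the 4 calls were kept.

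**Figure D4:**
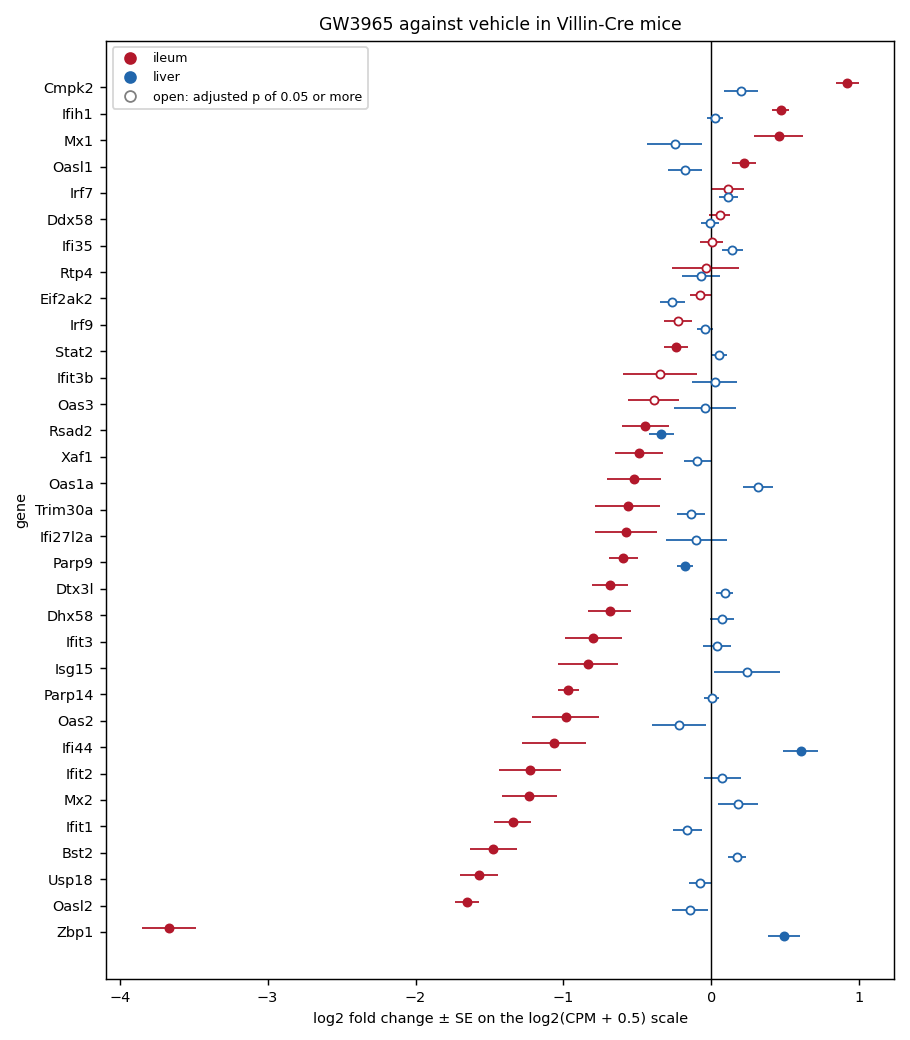
Log2 fold change with GW3965 in Villin-Cre mice (points) and its standard error (bars) for the 33 genes, ileum in red and liver in blue, open where the adjusted p was 0.05 or more. Ileal points reach down to -3.67 for Zbp1, and 29 of the 33 liver points are open.

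The difference between the 2 genotypes was tested in the liver too. Of the 33 genes, 24 were lower and 2 higher in the interaction, against 9.7% and 10.2% of all genes, and the median was -0.69 against -0.04. The largest differences were those of Ifit1 (-1.59 ± 0.14, adjusted p = 5.2e-06), Mx1 (-1.51 ± 0.26, adjusted p = 0.0012) and Ifit3b (-1.37 ± 0.22, adjusted p = 0.00056), each a rise in floxed mice with no call in Villin-Cre mice. Stat2 (-0.36 ± 0.08, adjusted p = 0.0042), Irf9 (-0.76 ± 0.08, adjusted p = 2.2e-05) and Isg15 (-1.02 ± 0.31, adjusted p = 0.034) were lower in the interaction. So were Usp18 (-0.77 ± 0.11, adjusted p = 0.00028), Ddx58 (-0.53 ± 0.09, adjusted p = 0.00091), Ifih1 (-0.28 ± 0.08, adjusted p = 0.024) and Eif2ak2 (-0.82 ± 0.12, adjusted p = 0.00027). Irf7 did not pass (0.12 ± 0.09, adjusted p = 0.37). Bst2 (0.84 ± 0.08, adjusted p = 1.1e-05) and Oas1a (0.54 ± 0.14, adjusted p = 0.015) were higher. None of the 26 differences was kept (0 of 26) once close libraries were averaged. Some calls were lost when 1 library was left out, namely Ifih1 without any 1 of 7 of the 12 libraries (adjusted p = 0.05 to 0.063), Isg15 without any 1 of 9 of the 12 libraries (adjusted p = 0.051 to 0.088) and Oas3 without any 1 of 10 of the 12 libraries (adjusted p = 0.056 to 0.096), and for each of them these were libraries of all 4 groups.

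Under vehicle, the Villin-Cre liver held more RNA of 27 of the 33 genes than the floxed liver, less of 1, and 5 did not pass. In this comparison 45.1% of all genes were higher and 11.7% lower, with medians of 0.72 over the 33 genes and 0.26 over all genes. Rescaling moved the median of all genes to 0.01, and then 5 of the 33 genes were lower. It kept 21 of the 28 calls and ended those of Ifit2, Oas2, Mx2, Ddx58, Ifih1, Dhx58 and Parp9, all higher before. This comparison, the GW3965 effect in floxed liver and the interaction share the 3 floxed vehicle libraries, which held the lowest summed level of the 33 genes among the 4 liver groups. Rsad2 was the furthest above, with 13.1, 12.1 and 11.3 CPM in floxed and 55.5, 58.4 and 57.3 CPM in Villin-Cre libraries (log2 fold change 2.19 ± 0.09, adjusted p = 9.5e-11). Oasl1 measured 15.5, 15.9 and 14.3 CPM and 44.7, 44.1 and 46.0 CPM (1.53 ± 0.11, adjusted p = 5.8e-08), and Ifit1 measured 3.87, 4.04 and 3.71 CPM and 10.5, 11.4 and 11.6 CPM (1.41 ± 0.10, adjusted p = 3.4e-08). The groups of these genes lay far apart. Bst2 was lower (188, 183 and 186 CPM against 110.2, 121 and 118 CPM, -0.67 ± 0.06, adjusted p = 2.5e-07), while Stat2 (-0.01 ± 0.05, adjusted p = 0.9) and Irf7 (-0.02 ± 0.06, adjusted p = 0.77) did not pass. Irf9 (0.63 ± 0.06, adjusted p = 3.7e-07), Isg15 (0.87 ± 0.22, adjusted p = 0.0037), Usp18 (0.95 ± 0.08, adjusted p = 1.7e-07), Ddx58 (0.25 ± 0.06, adjusted p = 0.004), Ifih1 (0.40 ± 0.06, adjusted p = 3.6e-05) and Eif2ak2 (0.72 ± 0.08, adjusted p = 5.4e-06) were higher, and Ddx58 turned sign after rescaling (-0.04).

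Cell markers moved widely in that comparison. Macrophage markers (10 of 10 higher) summed to 628 to 632 CPM in floxed and 1239 to 1254 CPM in Villin-Cre libraries, Kupffer cell markers to 416 to 425 and 1045 to 1074 CPM, and monocyte and neutrophil markers to 20.6 to 22.2 and 58.0 to 60.2 CPM. Markers of plasmacytoid dendritic cells (2 of 5 tested higher, against 45.1% of all genes) summed to 54.7 to 58.5 and 212 to 222 CPM, and those of dividing cells (5 of 5 lower) to 103 to 105 and 39.0 to 41.4 CPM. The plasmacytoid sum thus does not stand for a rise of that whole list. The part of all these cell markers in the 28 calls was not tested. After averaging of close libraries, 1 of the 28 calls was kept. Calls lost without 1 library were those of Mx2 without floxed vehicle replicate 2 or 3, or Villin-Cre vehicle replicate 2 or 3 (adjusted p = 0.056 to 0.11) and Oas2 without floxed vehicle replicate 1 or 2, or Villin-Cre vehicle replicate 2 or 3 (adjusted p = 0.05 to 0.068).

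Under GW3965, 9 of the 33 genes were higher and 6 lower in the Villin-Cre liver than in the floxed liver, against 40.9% and 15% of all genes, with medians of 0.05 and 0.21. After rescaling, which moved the median of all genes to 0, 14 were lower. It kept 12 of the 15 calls and ended those of Oasl2, Bst2 and Cmpk2. Rsad2 was the furthest above (22.4, 17.5 and 19.5 CPM in floxed and 44.0, 43.4 and 47.8 CPM in Villin-Cre libraries, 1.17 ± 0.09, adjusted p = 3.2e-08) and Mx2 the furthest below (23.7, 15.9 and 17.3 CPM and 10.3, 9.25 and 10.0 CPM, -0.89 ± 0.14, adjusted p = 5.5e-05), with separate groups for both. Stat2 (-0.37 ± 0.05, adjusted p = 3.4e-05) and Ddx58 (-0.28 ± 0.06, adjusted p = 0.0016) were lower. Irf9 (-0.13 ± 0.06), Irf7 (0.10 ± 0.06), Isg15 (-0.15 ± 0.22), Usp18 (0.18 ± 0.08), Ifih1 (0.12 ± 0.06) and Eif2ak2 (-0.11 ± 0.08) did not pass the test (adjusted p of at least 0.063). Macrophage markers (10 of 10 higher) summed to 457 to 600.0 CPM in floxed and 866 to 888 CPM in Villin-Cre libraries. Markers of plasmacytoid dendritic cells (2 of 5 tested higher, against 40.9% of all genes) summed to 16.9 to 23.8 and 269 to 289 CPM, and endothelial markers (6 of 6 higher) to 300.4 to 347 and 544 to 561 CPM. Here too the plasmacytoid sum does not stand for a rise of that whole list. The part of all these cell markers was not tested. Bst2 and Parp14 turned sign after rescaling (-0.07 and -0.22), and Bst2 lost its call without Villin-Cre GW3965 replicate 1 (adjusted p = 0.12), as Oasl2 did without Villin-Cre GW3965 replicate 2 (0.052). With close libraries averaged, 1 of the 15 calls was kept.

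For 13 of the genes the ileal and hepatic responses to GW3965 pointed in opposite directions in floxed mice, with a fall in the ileum, a rise in the liver and a called difference, as they did for 2.02% of the 16322 genes tested in both tissues. Both directions were already known when the list was chosen, so this share is a description and no test. The effect in the ileum minus that in the liver was lower for 28 of the 33 genes, higher for 1 and not called for 4, where 14% of all genes were lower and 15.2% higher. The largest differences were those of Mx2 (-3.23 ± 0.23, adjusted p = 7.3e-11), Zbp1 (-2.78 ± 0.23, adjusted p = 1.7e-09), Oas3 (-2.26 ± 0.30, adjusted p = 2.2e-06) and Usp18 (-2.06 ± 0.14, adjusted p = 3.6e-11). The 13 genes were Ifit1, Isg15, Oas2, Oas3, Oasl2, Mx2, Irf9, Zbp1, Usp18, Stat2, Parp9, Parp14 and Eif2ak2. Cmpk2 and Ddx58 rose in both tissues, and Bst2 fell in both. Irf7 was the 1 gene higher in the difference (0.44 ± 0.14, adjusted p = 0.017). Stat2 (-0.81 ± 0.10, adjusted p = 1.1e-06), Irf9 (-1.14 ± 0.12, adjusted p = 3.5e-08) and Isg15 (-1.80 ± 0.31, adjusted p = 9.3e-05) were lower, as were Ifih1 (-0.45 ± 0.08, adjusted p = 0.00014), Ddx58 (-0.29 ± 0.10, adjusted p = 0.03) and Eif2ak2 (-1.09 ± 0.11, adjusted p = 4.2e-08). Averaging of close libraries kept 0 of the 29 differences. Calls were lost for Ddx58 without any 1 of 7 of the 12 libraries (adjusted p = 0.051 to 0.085), Oas1a without any 1 of 8 of the 12 libraries (adjusted p = 0.055 to 0.14) and Rtp4 without ileal floxed vehicle replicate 2 or without liver floxed vehicle replicate 1 (adjusted p = 0.051 to 0.052).

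**Figure D5:**
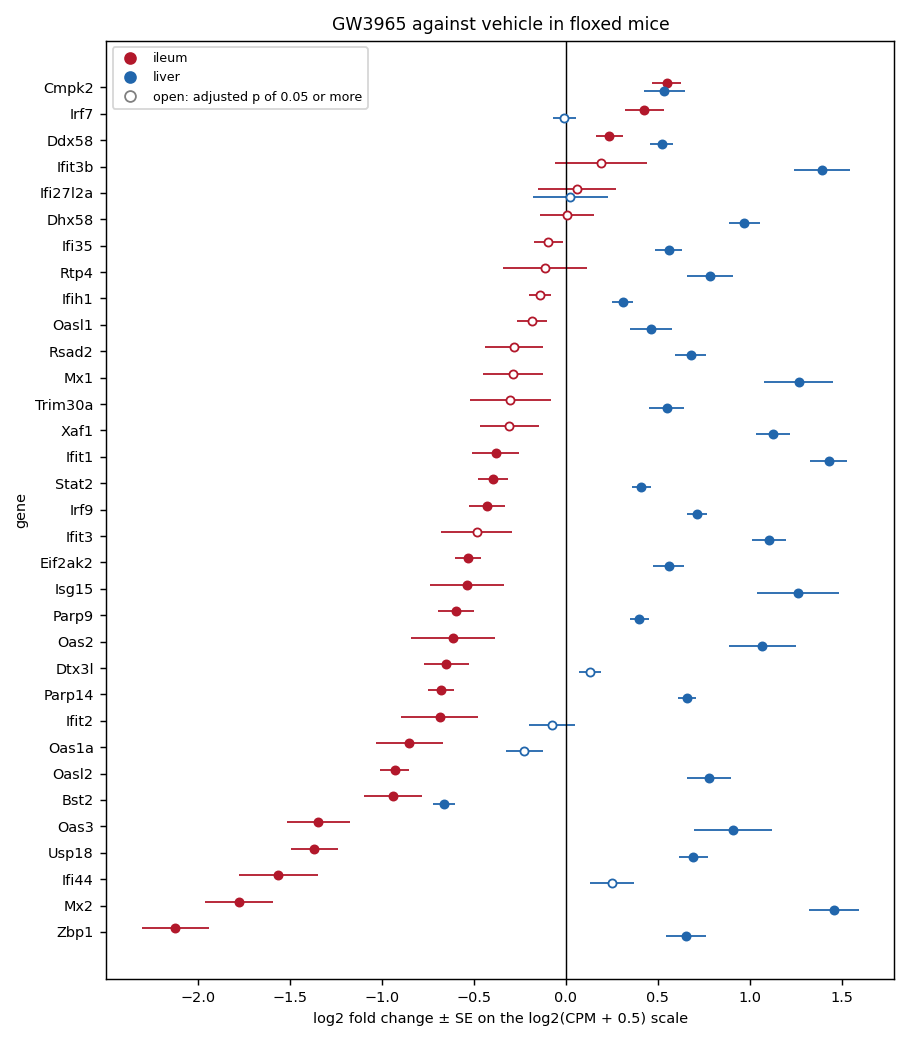
Log2 fold change with GW3965 in floxed mice (points) and its standard error (bars) for the 33 genes, ileum in red and liver in blue, open where the adjusted p was 0.05 or more. Most red points lie below 0 and most blue points above it. Cmpk2, Ddx58 and Bst2 are the genes with both points filled and on the same side.

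In Villin-Cre mice the difference between tissues was lower for 17 genes, higher for 4 and not called for 12, against 22.1% and 20.7% of all genes. Zbp1 (-4.16 ± 0.23, adjusted p = 8.1e-13) and Ifi44 (-1.67 ± 0.23, adjusted p = 2.2e-06) fell in the ileum and rose in the liver, a pattern that 0.852% of all genes shared. Cmpk2 (0.72 ± 0.14, adjusted p = 0.00016), Mx1 (0.70 ± 0.26, adjusted p = 0.03), Ifih1 (0.44 ± 0.08, adjusted p = 8.8e-05) and Oasl1 (0.40 ± 0.15, adjusted p = 0.03) were higher in the difference. Usp18 (-1.50 ± 0.14, adjusted p = 4.2e-09), Isg15 (-1.08 ± 0.31, adjusted p = 0.0072) and Stat2 (-0.29 ± 0.10, adjusted p = 0.024) were lower. Irf9 (-0.18 ± 0.12), Irf7 (0.00 ± 0.14), Ddx58 (0.07 ± 0.10) and Eif2ak2 (0.19 ± 0.11) did not pass the test (adjusted p of at least 0.18). With close libraries averaged, 0 of the 21 differences were kept. Leaving out 1 library ended the calls of Mx1 without any 1 of 7 of the 12 libraries (adjusted p = 0.054 to 0.095), Oas2 without any 1 of 7 of the 12 libraries (adjusted p = 0.06 to 0.12), Oasl1 without any 1 of 5 of the 12 libraries (adjusted p = 0.058 to 0.093) and Stat2 without any 1 of 4 of the 12 libraries (adjusted p = 0.051 to 0.054).

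Upstream of these genes, interferon itself was barely read. Of 12 interferon genes listed, 7 were under 0.1 CPM in every ileal library and 9 in every liver library, and the highest value of Ifnb1 was 0.105 CPM. Ifnk, the keratinocyte interferon kappa, was the 1 ligand that passed the filter, with log2 fold changes of 0.03 ± 0.20, adjusted p = 0.94 in the floxed ileum and -0.01 ± 0.24, adjusted p = 0.98 in the floxed liver. Of 15 genes for receptors and signalling, 7 rose and 4 fell with GW3965 in the floxed ileum, 7 and 4 in the Villin-Cre ileum, and 4 and 4 in the floxed liver. The shares of all genes were 14.7% and 20.9%, 21.5% and 31.1%, and 10.4% and 19.7%. In the Villin-Cre liver under vehicle 13 of the 15 were higher and 0 lower, against 45.1% and 11.7% of all genes. Socs1, an inhibitor of the receptor kinases, fell in the floxed ileum from 37.4, 35.4 and 39.2 CPM to 11.7, 12.8 and 8.28 CPM (-1.75 ± 0.15, adjusted p = 1.5e-07), and Irf1 fell there too (-0.73 ± 0.08, adjusted p = 9.9e-07). The receptor chains did not pass the test in the floxed ileum (0.13 ± 0.07, adjusted p = 0.15 for Ifnar1 and 0.03 ± 0.16, adjusted p = 0.91 for Ifnar2). Of 14 tested genes that induce interferon, 3 rose and 2 fell in the floxed ileum, 5 and 3 in the Villin-Cre ileum, and 1 and 2 in the floxed liver.

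Position and shared sequence limit a few of the values. Ifit2, Ifit3, Ifit3b and Ifit1 lie in that order on chromosome 19 (34550694 to 34650009), Oas2, Oas3 and Oas1a on chromosome 5 (120730333 to 120907521), and Oasl2 and Oasl1 on the same chromosome (114896936 to 114937915), all in GRCm38. Rsad2 and Cmpk2 start 12752 bases apart on opposite strands of chromosome 12, and Parp9 and Dtx3l overlap by 682 bases at their starts. In windows of 150 bases, the read length, 18.55% of the Ifit3 transcript also occurs in Ifit3b, 15.99% of Ifit3b in Ifit3, 32.43% of Oas1a in Oas1g, 8.60% of Rtp4 in Gm45338, 3.48% of Trim30a in Trim30d and 1.24% of Ifit1 in Ifit1bl2, so those values are uncertain to that extent. Irf7 overlaps Phrf1 and Rtp4 overlaps Masp1 on the opposite strand, and Irf9 overlaps Rnf31 on the same strand. The sources used here do not say whether the counting used strand, so reads from such neighbours cannot be told apart. In the floxed ileum Phrf1 measured 80.5 ± 3.01 CPM on vehicle and 74.1 ± 2.70 CPM on GW3965, while Rnf31 measured 81.6 ± 0.544 CPM and 72.3 ± 2.04 CPM.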

How the data were processed

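Total RNA had been depleted of ribosomal RNA with RNase H, primed with random hexamers and read in pairs on a NovaSeq, per the labels' protocols. The submitters' processing notes name the build GRCm38, the aligner STAR 2.5.1a and the counter featureCounts 1.4.6-p5 (with Subread and bcl2fastq). The sources used here give neither the strand setting nor the formula of the transform. The authors deposited 1 table of log2 expression values per tissue, with 40757 entries for 12 libraries each. Of these, 276 per tissue repeated another and were dropped. The lowest log2 value, -5.62 in every library, was taken as 0 reads, CPM was taken as 2 to the deposited log2 value minus 2 to the lowest one, and all low values tested (100%) then came out as whole reads within 0.05 reads. Of read numbers from 1 to 20, 65.45 to 70.39% were even, so both mates had mostly been counted. No columns were left unmapped.

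The test was limma 3.58.1 in R 4.3.3 (empirical Bayes with trend) on log2(CPM + 0.5), fitting a mean for each group to all libraries of a tissue, for genes that reached 0.5 CPM in 3 or more libraries. The tissue differences used all 24 libraries and took ileal and liver libraries as independent, though some may share a mouse. Adjustment was by Benjamini-Hochberg over all genes tested, with a threshold of 0.05. The scripts were tested on simulated data. Named with values in every library are, per GW3965 comparison, up to 8 called members with the largest fold change, no overlap and at least 1 CPM, and members called against the majority. Stat2, Irf9, Irf7, Isg15, Usp18, Ddx58, Ifih1 and Eif2ak2 are given in every comparison, and the pairs Ifit3 and Ifit3b, Oasl1 and Oasl2, and Mx1 and Mx2 for GW3965. Other members were named as the furthest in a comparison or as exceptions to a count, after their values were seen. The alternatives were no filter, median-ratio rescaling, a pseudocount of 2 CPM, the log2 values as deposited, the replicate number as a block, voom on recovered reads, close libraries averaged, only the groups compared, and leaving out each library. The members, lists and rules were chosen with earlier results of these data known. Values of 1 further item are not reported here.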

Additional observations from a re-analysis of the deposited data

Results flagged for a closer look

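The GW3965 effects in different groups were compared by testing the difference itself with limma. In the ileum, 11 of the 33 genes had a difference between the genotypes past the threshold, and 0 of them were called in opposite directions. In the liver, 26 differed between the genotypes, and 2 of them were called in opposite directions, namely Rsad2 (difference -1.02) and Parp9 (-0.58), which rose in floxed mice and fell in Villin-Cre mice. Both falls lost their call when single libraries were left out (adjusted p = 0.054 to 0.082 for Rsad2 and 0.069 to 0.17 for Parp9).

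Between the tissues, 29 of the 33 genes differed in floxed mice, and 13 of them fell in the ileum and rose in the liver. That contrast was known when the list was chosen, so its counts are a description. Their log2 differences were -3.23 for Mx2, -2.78 for Zbp1, -2.26 for Oas3, -2.06 for Usp18, -1.81 for Ifit1, -1.80 for Isg15, -1.71 for Oasl2, -1.68 for Oas2, -1.33 for Parp14, -1.14 for Irf9, -1.09 for Eif2ak2, -1.0 for Parp9 and -0.81 for Stat2. In Villin-Cre mice 21 of the 33 genes differed between the tissues, and 2 of them, Zbp1 (-4.16) and Ifi44 (-1.67), fell in the ileum and rose in the liver. These 2 genes are the ones whose hepatic level rose with GW3965 in Villin-Cre mice.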

How the results depend on the processing

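Counts are given as higher and then lower among the 33 genes. Averaging close libraries, which leaves 5 samples for 4 groups and 1 residual degree of freedom per tissue (10, 8 and 2 in the tissue differences), changed every comparison. In the ileum the counts went to 0 and 0 (GW3965 in floxed mice, from 3 and 18), 0 and 4 (GW3965 in Villin-Cre mice, from 4 and 21), 0 and 0 (genotype under vehicle, from 10 and 5), 2 and 0 (genotype under GW3965, from 10 and 8) and 0 and 0 (interaction, from 6 and 5). In the liver they went, in the same order, to 0 and 0 (from 26 and 1), 0 and 0 (from 2 and 2), 1 and 0 (from 27 and 1), 1 and 0 (from 9 and 6) and 0 and 0 (from 2 and 24), and in the tissue differences to 0 and 0 (floxed, from 1 and 28) and 0 and 0 (Villin-Cre, from 4 and 17). No sign of a called gene turned there. Without the filter, higher counts went to 1 and 2 (ileal GW3965, floxed and Villin-Cre), 3 (ileal interaction), 1 (hepatic GW3965, Villin-Cre), 0 and 2 (tissue differences, floxed and Villin-Cre), and lower counts to 3 and 4 (ileal genotype under vehicle and GW3965) and 0 (hepatic GW3965, Villin-Cre), with more genes tested. Rescaling gave 17 and 2 (ileal genotype under vehicle), 16 and 3 (under GW3965), 5 and 0 (hepatic GW3965, Villin-Cre), and lower counts of 5 and 14 (hepatic genotype under vehicle and GW3965). In those hepatic genotype comparisons it kept 21 of 28 and 12 of 15 calls. It reversed Oasl2 (0.03) and Parp14 (0.10) in the ileum under GW3965, and Ddx58 (-0.04, vehicle), Bst2 (-0.07) and Parp14 (-0.22, both GW3965) in the liver. With only the groups compared, 5 genes were lower in the ileal genotype comparison under GW3965, 4 and 4 were called for hepatic GW3965 in Villin-Cre mice, and 0 were higher in the floxed tissue difference. The log2 values as deposited left 1 lower call for hepatic GW3965 in Villin-Cre mice. The cause of these changes was not tested. A pseudocount of 2 CPM and voom kept every count within 1.5 times.

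Leaving out 1 library gave 2 to 3 higher and 15 to 18 lower for ileal GW3965 in floxed mice, 2 to 3 and 16 to 20 for the same with Villin-Cre, 8 to 11 and 4 to 6 for the ileal genotype under vehicle, 10 to 10 and 5 to 9 under GW3965, and 5 to 7 and 4 to 8 in the ileal interaction. In the liver it gave 26 to 26 and 1 to 1, 2 to 2 and 0 to 1, 25 to 27 and 1 to 1, 8 to 10 and 6 to 8, and 2 to 2 and 21 to 26, in the same order. The tissue differences gave 1 to 1 and 25 to 28 in floxed mice and 2 to 4 and 15 to 18 with Villin-Cre. Of 3168 fits of single genes without 1 library, 171 lost a call, 30 gained one and 0 reversed.

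Within a tissue no pairing of libraries by replicate number was seen. The spread within a group may be technical, so this check cannot exclude a pairing. Of 18 same-numbered pairs per tissue, 0 had deviations correlated above 0.1 (-0.04 to 0.06 in the ileum, -0.03 to 0.03 in the liver). Whether ileal and liver libraries of the same number came from the same mouse was not checked. With the replicate number as a block, 1 gene was lower with GW3965 in the Villin-Cre liver, against 2, and every other count stayed within 1.5 times. Depth limits the low genes: Ifi44, Ifit3b, Ifi27l2a, Mx1, Mx2, Isg15, Oas2, Rtp4, Ifit2 and Ifit3 averaged under 10 CPM in most groups.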

Other observations

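Beyond the 33 genes, 64 further genes known to be induced by interferons were followed, of which 60 passed the filter in the ileum and 62 in the liver. With GW3965, 31 fell and 6 rose in the floxed ileum, 36 fell and 6 rose in the Villin-Cre ileum, and 28 rose and 10 fell in the floxed liver. Over all genes, 20.9% fell and 14.7% rose, 31.1% fell and 21.5% rose, and 10.4% rose and 19.7% fell, in that order. Summed levels went from 3543 to 3671 CPM to 2121 to 2796 CPM in the floxed ileum. They went from 3078 to 3105 CPM to 2158 to 2260 CPM in the Villin-Cre ileum. In the floxed liver the sum was lower on GW3965, at 2736 to 3203 CPM against 3277 CPM, although more genes rose than fell. The median log2 fold changes of the list were -0.42, -0.70 and 0.28, beside -0.08, -0.11 and -0.04 over all genes. Genes that make and load peptides for MHC class I were on this list. Psmb8, Psmb9, Tap1 and Nlrc5 are given here, while Psmb10 and B2m, also listed, are not. Psmb8, a subunit of the immunoproteasome, measured 92.2, 86.9 and 88.7 CPM in floxed vehicle ileum and 35.1, 34.3 and 18.9 CPM on GW3965 (-1.64 ± 0.16, adjusted p = 4.6e-07), and 11.7, 12.6 and 10.9 CPM and 15.2, 14.8 and 15.1 CPM in the floxed liver (0.35 ± 0.07, adjusted p = 0.0023). Psmb9 (-1.59 ± 0.14, adjusted p = 1.4e-07 in the ileum, 0.46 ± 0.08, adjusted p = 0.00058 in the liver), the peptide transporter Tap1 (-1.41 ± 0.17, adjusted p = 7e-06 and 0.57 ± 0.07, adjusted p = 3.1e-05) and Nlrc5, the transactivator of MHC class I genes (-1.33 ± 0.20, adjusted p = 4.7e-05 and 0.68 ± 0.05, adjusted p = 3.6e-07), likewise fell in the ileum and rose in the liver. These genes are also induced by interferon gamma.

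Other members of that list fell in both tissues of floxed mice. Cxcl9, a chemokine induced by interferon gamma, went from 25.9, 28.4 and 25.5 CPM to 6.47, 5.66 and 3.62 CPM in the ileum (-2.27 ± 0.16, adjusted p = 1.2e-08) and had a log2 fold change of -0.62 ± 0.08, adjusted p = 3.6e-05 in the liver. Ifitm3, which blocks viral entry at membranes, fell by similar steps in the ileum of floxed (-1.21 ± 0.13, adjusted p = 2.1e-06) and Villin-Cre mice (-1.24 ± 0.13, adjusted p = 5.8e-07) and less in the floxed liver (-0.47 ± 0.06, adjusted p = 2.4e-05). Ly6e (-0.71 ± 0.15, adjusted p = 0.001 in the ileum, -0.50 ± 0.06, adjusted p = 1.3e-05 in the liver) and Lgals9 (-0.93 ± 0.05, adjusted p = 3.3e-10 and -0.22 ± 0.07, adjusted p = 0.034) fell in both as well. In floxed mice the ileal effect was below the hepatic effect for Psmb8 (-1.98 ± 0.19, adjusted p = 2.1e-08), Cxcl9 (-1.65 ± 0.19, adjusted p = 2.5e-07) and Ifitm3 (-0.75 ± 0.15, adjusted p = 0.00041) by the same limma test of the difference. The genes named here were chosen after their values were seen.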
